A study of Mus musculus with 18 samples.

Results

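The stearoyl-CoA desaturase genes Scd1 and Scd2 were described together with 8 genes of fatty acid synthesis and of the liver X receptor (LXR) pathway in mouse bone marrow-derived macrophages. The other 8 were Fasn, Acaca, Elovl6, Srebf1, Nr1h3, Abca1, Abcg1 and Mylip. The 10 genes were picked by symbol from a table of 45706 genes, with Scd1 chosen because its level was higher in the knock-in cells, and all 10 passed the filter on low counts that left 11308 genes for testing. Macrophages came from wild-type (WT) C57BL/6 mice and from RelA-TA-KI mice of the same strain, a knock-in line whose name and the study's title point to transactivation by RelA, a subunit of NF-kB. The labels give an age of 12 days for both genotypes. Marrow cells of both genotypes were grown for 6 days in medium with 30% L929-conditioned medium and were used on day 7. Each genotype was left unstimulated, or was given LPS at 100 ng/ml or TNF at 10 ng/ml for 0.5, 1, 3 or 8 h. LPS is the bacterial product sensed by the receptor TLR4, and TNF is an inflammatory cytokine. Each of the 9 conditions had 1 library of each genotype, 18 libraries in all, so a condition had no replicate, and the error of each test comes from how the genotype pairs differ between conditions.

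Fatty acids are built in the cytosol by acetyl-CoA carboxylase (Acaca) and fatty acid synthase (Fasn), lengthened by Elovl6 and given their first double bond by the desaturases Scd1 and Scd2. Transcription of these genes is driven by SREBP-1, the product of Srebf1, which is itself a target of the oxysterol receptors LXRα (Nr1h3) and LXRβ. In macrophages, LXR with its partner RXR also raises the cholesterol exporters Abca1 and Abcg1 and the ubiquitin ligase Mylip (also called Idol), which limits the uptake of cholesterol into cells. Activated LXR is known to repress many inflammatory genes, and signalling from Toll-like receptors to blunt LXR target genes in macrophages.

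Promoters bear on this set because several members are known direct LXR targets. The RefSeq table held promoter windows of 300 bases (250 before and 50 after a transcription start, build GRCm38.p6) for 7 of the 10 genes, in 10 windows. Scd1, Scd2 and Abcg1 had no window, so their promoters were not searched. None of the 10 windows held the fixed letters of a sterol regulatory element (TCACNCCAC), present in 1.24% of 32851 windows, of the LXR direct repeat (0.0213%) or of the kB site (1.63%), on either strand. The search asked for exact LXR letters, which only 7 of all windows held. Absence of exact letters cannot show that a window lacks an LXR element, a sterol regulatory element or a kB site with other letters. The longest run shared by windows of different members, 18 bases, was in those of Abca1 and Fasn, and its best matches among the other members, 2 with 3 mismatches, lay in a window of an internal start of Srebf1. The letters all of these share, GNCCGNNAGTAACCCC, were taken from the windows after they had been seen, and occurred in 3 of the 32851 windows on either strand, those same 3 (0.00913%). Set beside the LXR direct repeat searched above, the run of Abca1 and Fasn differed at only a few of its fixed letters. So did a Srebf1 match. The exact search could not count such near matches, and whether they act as LXR elements was not tested. The shared letters are thus given as a description, and binding at them was not tested. The 3 windows are printed below 5′ to 3′ on the minus strand, since they are the ones that share these letters, which are in capitals.
Abca1, chr4:53159846-53160145: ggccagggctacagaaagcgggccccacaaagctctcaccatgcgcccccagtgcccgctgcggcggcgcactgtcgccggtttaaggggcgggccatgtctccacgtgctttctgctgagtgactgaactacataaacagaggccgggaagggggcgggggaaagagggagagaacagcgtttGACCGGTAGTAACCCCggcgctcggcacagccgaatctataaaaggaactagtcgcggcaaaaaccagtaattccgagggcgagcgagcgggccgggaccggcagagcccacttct
Fasn, chr11:120824498-120824797: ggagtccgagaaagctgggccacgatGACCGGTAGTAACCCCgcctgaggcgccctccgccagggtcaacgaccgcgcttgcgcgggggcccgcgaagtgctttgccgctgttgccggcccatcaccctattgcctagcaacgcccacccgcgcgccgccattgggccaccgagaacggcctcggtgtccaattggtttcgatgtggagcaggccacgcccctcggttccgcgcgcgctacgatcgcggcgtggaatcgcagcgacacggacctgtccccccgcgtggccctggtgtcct
Srebf1, chr11:60210422-60210721: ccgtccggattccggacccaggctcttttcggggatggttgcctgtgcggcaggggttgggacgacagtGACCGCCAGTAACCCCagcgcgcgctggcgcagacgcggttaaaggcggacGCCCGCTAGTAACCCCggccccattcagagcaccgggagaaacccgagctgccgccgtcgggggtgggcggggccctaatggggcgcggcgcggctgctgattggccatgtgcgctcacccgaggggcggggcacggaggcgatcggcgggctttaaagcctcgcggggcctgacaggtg

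The shared letters began 66 bases before the start of Abca1, 224 before that of Fasn, and 181 and 130 before that of Srebf1. The run common to Abca1 and Fasn was TGACCGGTAGTAACCCCG, while the Srebf1 matches read TGACCGCCAGTAACCCCA and CGCCCGCTAGTAACCCCG. The NF-Y box CCAAT, found in 37.4% of all windows on either strand, occurred 3 times in the Fasn window, at 90, 62 and 59 bases before its start. It was also found in the printed Srebf1 window, 30 bases before its start, once in another Srebf1 window and 3 times in the window of Mylip. The Sp1 box GGGCGG, found in 35.7% of windows, occurred in the Abca1 window at 163 and 97 bases before its start and in the printed Srebf1 window at 65 and 6 bases before its start. It also occurred 3 times in another Srebf1 window and in the window of Mylip, 44 bases before its start.

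Libraries held between 4663650 and 6721917 counted reads, of which the 10 genes took 0.092% to 0.658%. Levels are given as CPM (read counts scaled to a library of 1000000) after TMM scaling, whose factors ran from 0.57 to 1.205 and were lowest after 8 h of LPS. Rela itself was counted at 62.5 to 283 CPM in WT and 67.4 to 181 CPM in knock-in libraries, a count that does not read the allele. Its genotype difference was −0.20 ± 0.06 (log2, SE, edgeR adjusted p = 0.049), a call that held in 4 of 18 fits that left out a library and with library totals (−0.28, adjusted p = 0.013). All 8 macrophage markers were present, with a summed level of 9081 to 15318 CPM, higher in the knock-in in 1 of 9 conditions. Of these Fcgr1 (0.92 ± 0.09), Cd68 (0.36 ± 0.05) and Itgam (0.34 ± 0.04) passed as higher in the knock-in on the log2 scale and Csf1r (−0.24 ± 0.06) and Lyz2 (−0.18 ± 0.03) as lower, by edgeR's test with adjusted p under 0.05. Of 6 adipocyte markers, Adipoq, Lep, Cidec and Cfd were at 0 in every library and the summed level was at most 0.323 CPM. Markers of other cells moved with genotype too. The summed level of 6 fibroblast markers was 98.3 to 192 CPM in WT and 13.7 to 72.1 CPM in knock-in libraries, lower in the knock-in in 9 of 9 conditions, and 4 of 4 tested passed as lower (Col1a1, Col1a2, Dcn, Pdgfrb). The 8 neutrophil markers summed to 169.7 to 348 CPM in WT and 81.4 to 243 CPM in knock-in libraries, again lower in 9 of 9, and all 7 tested passed as lower. Dendritic cell markers summed to 6.43 to 28.7 CPM in WT and 2.73 to 25.7 CPM in the knock-in, and 3 of 5 tested passed as lower (Flt3, Dpp4, Cd209a). Lymphocyte, erythroid and mast cell markers summed to at most 32.5 CPM, and the 1 of them tested, Kit, was not called. In bulk RNA a change in the number of cells of a type and a change in RNA per cell cannot be told apart. The part of these marker differences in the genotype results was not tested.

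Scd1 was the member with the widest separation of the genotypes. In WT libraries it stood at 24.1 CPM unstimulated, at 19.5, 18.6, 17.5 and 24.5 CPM after 0.5, 1, 3 and 8 h of LPS, and at 34.4, 26.4, 33.8 and 42.7 CPM after TNF. In knock-in libraries it stood at 222 CPM unstimulated, at 199, 198, 194 and 139.7 CPM along LPS and at 203, 198, 218 and 249.9 CPM along TNF. The lowest knock-in library was thus above the highest WT library. The knock-in to WT ratio was 9.19 unstimulated and ran from 5.69 after 8 h of LPS to 11.1 after 3 h of LPS, with a median of 7.52. The fitted genotype difference was 2.95 ± 0.12 (log2, SE, 9 pairs), and no p is given because this contrast chose the gene. Of all genes tested, 1.31% had genotypes that did not overlap and 0.46% had every knock-in library above every WT library. Scd1 lies on chromosome 19 (mm10, 44394451 to 44407709, minus strand).

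Scd2, the desaturase that lies 87587 bases from Scd1 on the same chromosome (44293676 to 44306864, plus strand), was the most abundant member. It stood at 1648 CPM in unstimulated WT and 3792 CPM in unstimulated knock-in cells. After 0.5, 1, 3 and 8 h of LPS it was at 1428, 1341, 857 and 132 CPM in WT and at 3552, 3393, 1958 and 267 CPM in the knock-in. After TNF it stayed between 1586 and 1831 CPM in WT and between 3394 and 3628 CPM in the knock-in. The knock-in library was higher in 9 of 9 conditions, 1.85- to 2.53-fold, although the groups overlapped through the low LPS values. The fitted difference was 1.15 ± 0.05 (log2, SE). Identical stretches limit how far the paralogs can be told apart: 4.66% of the 50-base windows of the Scd1 transcript and 4.01% of those of Scd2 also occur in another Scd gene.

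**Figure D1:**
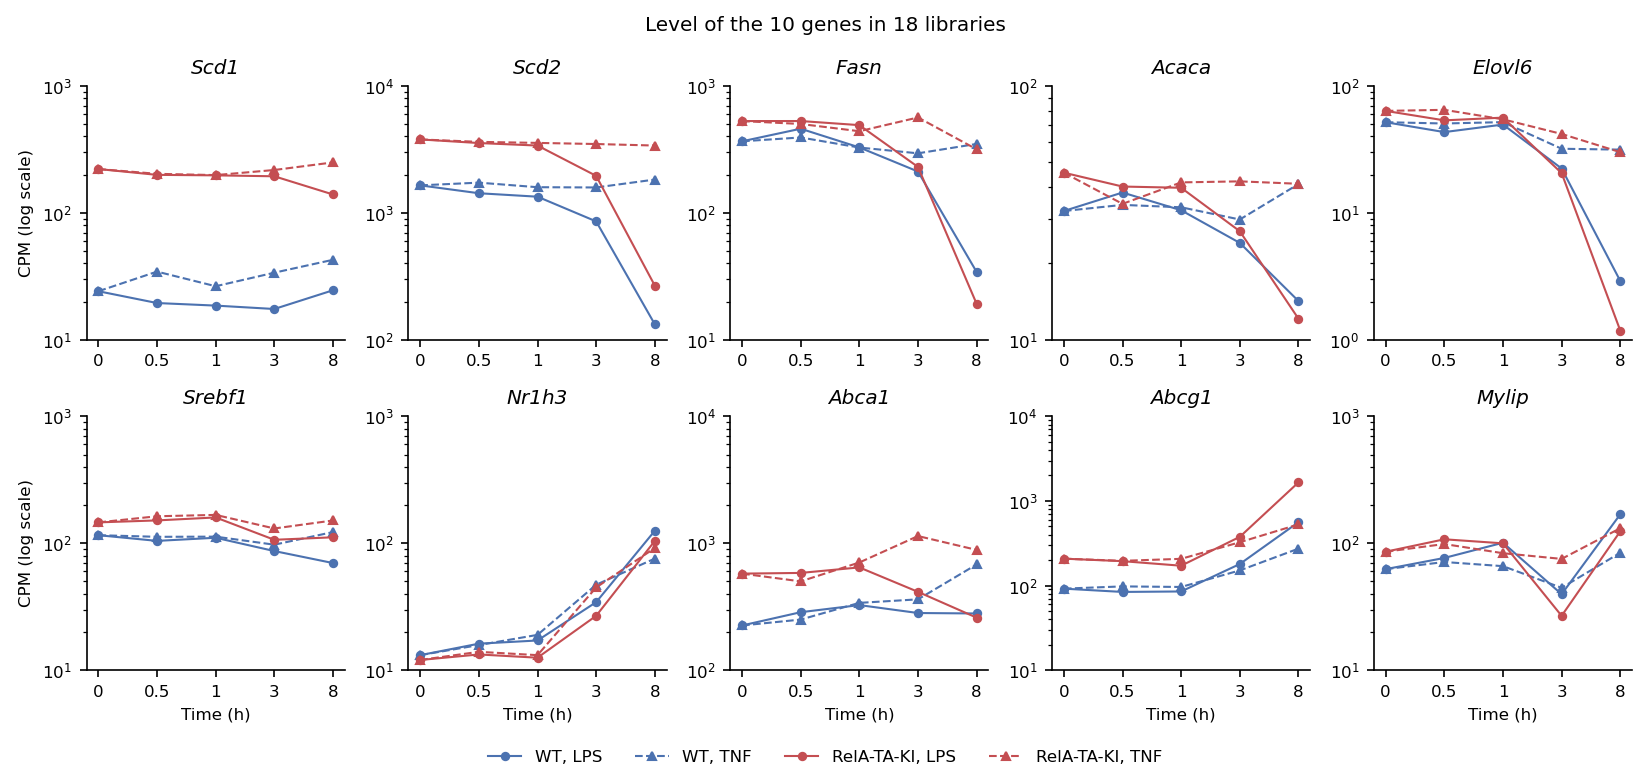
Level (CPM) of each of the 10 genes on a log scale against time after stimulation (0 h is the shared unstimulated library), 1 point per library, with WT in blue, RelA-TA-KI in red, LPS as solid lines and TNF as dashed lines. Scd1 shows 2 separate bands, 17.5 to 42.7 CPM in WT and 139.7 to 249.9 CPM in the knock-in, whereas Scd2, Fasn and Elovl6 drop along LPS in both genotypes.

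Per kilobase of exon, Scd2 was the highest of the 10 in both genotypes before stimulation, at 302 CPM per kb in WT and 695 CPM per kb in the knock-in. Scd1 ranked ninth in unstimulated WT at 4.99 CPM per kb, close to Nr1h3 at 5.21, and the fifth in the knock-in at 45.8 CPM per kb. After 8 h of LPS the order had changed and Abcg1 was highest, at 138 CPM per kb in WT and 407 CPM per kb in the knock-in. After 8 h of TNF Scd2 was still highest, at 336 and 622 CPM per kb. Each level is 1 library, so neighbours in the order have no spread of their own to be told apart by.

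The chain-building enzymes differed less by genotype than the desaturases. Fasn ranged from 34.2 to 461 CPM in WT (median 328) and from 19.2 to 565 CPM in the knock-in (median 492), so the groups overlapped. The knock-in library was above WT in 7 of 9 conditions, but not at 8 h of LPS (ratio 0.561) or TNF (0.907), and the fitted difference was 0.30 ± 0.13 (log2, SE). Acaca, which makes malonyl-CoA, ranged from 14.2 to 41.1 CPM in WT and 12.1 to 45.5 CPM in the knock-in, with a fitted difference of 0.21 ± 0.07. Elovl6, which lengthens palmitate, ranged from 2.91 to 51.9 CPM and from 1.18 to 64.9 CPM, with a fitted difference of 0.18 ± 0.07. Acaca shares 52.6% of its transcript's 50-base windows with the gene model Gm5182, so its count is uncertain.

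Among the regulators, Srebf1 was higher in the knock-in in 9 of 9 conditions and Nr1h3 in 1. Srebf1 stood at 69.8 to 122 CPM in WT (median 110.4) and 106 to 167 CPM in the knock-in (median 151), a fitted difference of 0.47 ± 0.05 (log2, SE). Its genomic span overlaps Rai1 on the other strand, and the strand setting of the counting is not given in the sources used here. Acaca (Gm11437), Elovl6 (Gm35986) and Nr1h3 (Gm23390) also overlap a gene on the other strand. Scd2, Acaca, Elovl6, Srebf1, Nr1h3 and Abcg1 overlap genes annotated on their own strand. Nr1h3, which encodes LXRα, ranged from 13.1 to 125 CPM in WT and 12.0 to 104 CPM in the knock-in, a fitted difference of −0.18 ± 0.08. Nr1h3 was thus below WT in 8 of 9 conditions. The counting interval of its ratio included 1 unstimulated, after 0.5 and 1 h of LPS and after 0.5 and 3 h of TNF. It lay below 1 after 3 and 8 h of LPS and 1 h of TNF, and above 1 after 8 h of TNF. Nr1h2, which encodes LXRβ, ranged from 52.1 to 95.9 CPM in WT and 62.0 to 103.9 CPM in the knock-in. It was above WT in 6 of 9 conditions and not called (0.12 ± 0.05, edgeR adjusted p = 0.099). Srebf1 and Abcg1, which LXR is known to drive, were above WT in 9 of 9 and Abca1 in 8 of 9. Mylip, which LXR also raises, was above WT in only 6 of 9. Across all genes, 6.68% were above WT in 9 of 9 conditions, and of the members these were Scd1, Scd2, Srebf1 and Abcg1. Nothing is read from that count, because the contrast chose the set.

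The cholesterol exporters were higher in the knock-in at rest. Abcg1, which loads cholesterol onto mature HDL, stood at 91.8 CPM in unstimulated WT and 208 CPM in unstimulated knock-in cells, and its ratio ran from 1.94 to 2.95 over the 9 conditions with a fitted difference of 1.13 ± 0.06 (log2, SE). Abca1, which loads cholesterol onto lipid-poor apolipoprotein A-I, stood at 225 and 576 CPM unstimulated, a ratio of 2.56. Along LPS the Abca1 ratio was 2.04, 1.98, 1.47 and 0.927 at 0.5, 1, 3 and 8 h, and along TNF it was 2.0, 2.08, 3.15 and 1.30. Its fitted difference, 0.89 ± 0.16, thus averages over ratios that span both sides of 1. Mylip ranged from 39.6 to 169 CPM in WT and from 26.8 to 131 CPM in the knock-in, above WT in 6 of 9 conditions (0.26 ± 0.13). The median of the 10 fitted differences was 0.38, beside −0.0047 over all genes tested, of which 19.7% were called in this contrast, and nothing is read from this gap either, because the contrast chose the set.

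**Figure D2:**
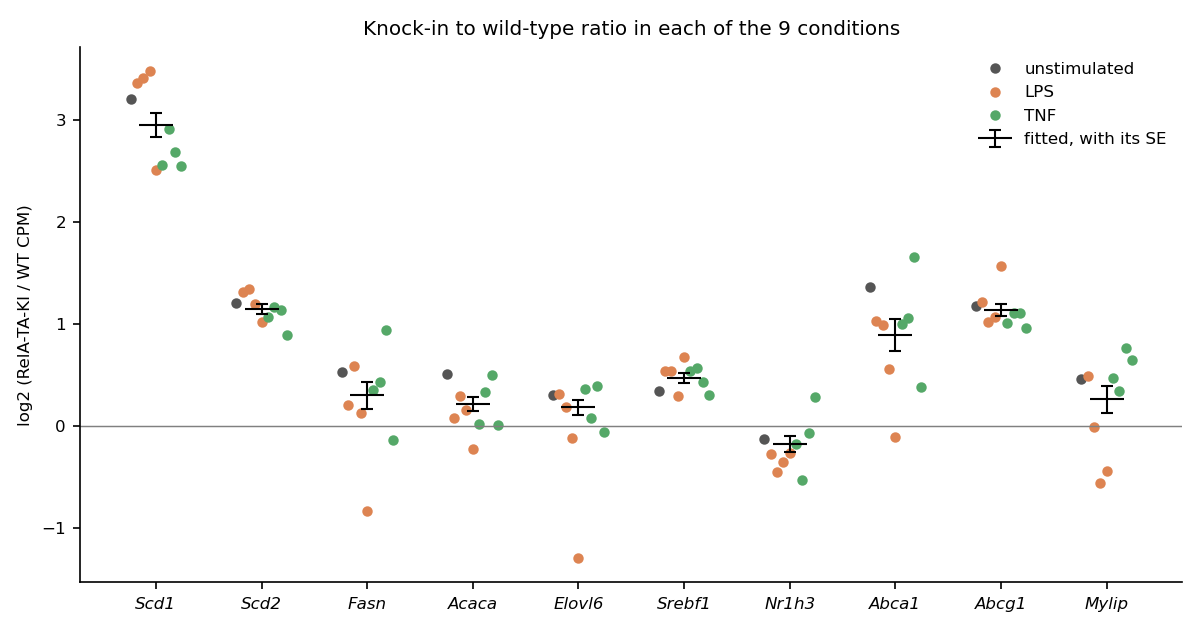
Log2 ratio of the RelA-TA-KI to the WT level for each gene, 1 point per condition (grey unstimulated, orange LPS, green TNF, each in order of time from left to right), with the fitted difference and its SE in black. Scd1 lies between 2.51 and 3.47, Scd2, Srebf1 and Abcg1 lie above 0 in all 9 conditions, and the lowest point is Elovl6 after 8 h of LPS.

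The response to LPS was tested over both genotypes together with edgeR's quasi-likelihood test, which gives the Benjamini-Hochberg adjusted p-values below. Over the 4 times, 8 of the 10 genes passed, against 72.2% of all genes, so the share is near the background. Neither 0.5 h nor 1 h of LPS moved any member past the threshold (0 and 1 of the 10 had an unadjusted p under 0.05). At those times 0.92% and 6.84% of all genes were called. At 3 h 2 members passed as higher (24.8% of all genes did) and 6 as lower (22.7%), 8 in all beside 47.6% of all genes. At 8 h 3 passed as higher (33.8%) and 5 as lower (33.9%), 8 in all beside 67.7%.

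The synthesis enzymes other than Scd1, and their regulator Srebf1, fell along LPS. After 8 h Elovl6 had changed by −4.83 ± 0.26 on the log2 scale (SE, adjusted p = 2.0e-09), to 2.91 CPM in WT and 1.18 CPM in the knock-in, which rest on 9 and 4 reads. Fasn had changed by −4.03 ± 0.33 (adjusted p = 7.6e-07) and Scd2 by −3.73 ± 0.12 (adjusted p = 2.1e-11). Acaca had changed by −1.55 ± 0.18 and Srebf1 by −0.55 ± 0.10. All 5 were already lower at 3 h, Elovl6 by −1.41 ± 0.16 and Scd2 by −0.95 ± 0.10 on the log2 scale. The calls of Fasn and Acaca at 3 h did not hold without the unstimulated knock-in library (adjusted p = 0.076 and 0.083), nor that of Fasn without the knock-in LPS 3 h library (0.089).

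Scd1 did not pass with its paralog. Its fitted change after 8 h of LPS was −0.40 ± 0.25 (log2, SE, adjusted p = 0.17), with WT at 1.02 times and the knock-in at 0.630 times its own unstimulated level. Scaling by library totals in place of TMM, which shifts the median change of all genes at 8 h of LPS by −0.95, gave Scd1 −1.38 and a call (adjusted p = 0.00056). At 3 h its change was −0.26 ± 0.23 with TMM and −0.81 with library totals. Scd2 was 12.4-fold lower in WT and 14.2-fold lower in the knock-in after 8 h of LPS than in the unstimulated library of the same genotype.

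LXR-side genes went the other way in part. Nr1h3 rose by 3.19 ± 0.17 (log2, SE, adjusted p = 1.5e-09), from 13.1 to 125 CPM in WT and from 12.0 to 104 CPM in the knock-in over 8 h of LPS. Abcg1 rose by 2.82 ± 0.13 (adjusted p = 4.7e-10), from 91.8 to 560.3 CPM in WT and from 208 to 1655 CPM in the knock-in. Both were already higher at 3 h, by 1.28 ± 0.18 and 0.91 ± 0.12. Mylip was lower at 3 h, −1.12 ± 0.30 (adjusted p = 0.010), and higher at 8 h, 1.02 ± 0.28 (adjusted p = 0.0072). That late rise was not there with library totals (0.07) and lost its call without the WT LPS 8 h library (0.54, adjusted p = 0.13) or the unstimulated WT library (0.90, adjusted p = 0.058). The drop at 3 h lost its call without the unstimulated knock-in library (adjusted p = 0.056) or the knock-in LPS 3 h library (−0.72, adjusted p = 0.11).

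Abca1 did not pass after LPS in the fit over both genotypes. In WT it was at 286, 325, 282 and 279 CPM after 0.5, 1, 3 and 8 h of LPS, above the 225 CPM of the unstimulated library at every time. In the knock-in it was at 583, 645, 414 and 259 CPM, from 576 CPM unstimulated. The WT direction at the late times turned with library totals, at −0.18 and −0.57 on the log2 scale against the unstimulated library at 3 and 8 h, where the knock-in was at −1.04 and −2.18. The fitted change at 8 h was −0.37 ± 0.34 (adjusted p = 0.35). It was −1.02 without the WT LPS 8 h library (adjusted p = 0.026) and −1.30 with library totals (adjusted p = 0.0075).

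TNF moved fewer of the 10. Over its 4 times 3 members passed, Nr1h3 and Abcg1 higher (16.7% of all genes were) and Elovl6 lower (13.6%), while 30.4% of all genes were called. At 0.5 and 1 h no member passed, and none had an unadjusted p under 0.05 (0.38% and 1.07% of all genes called). At 3 h 3 members passed (13.5% of all genes) and at 8 h 4 (31.9%), 3 higher (17.1%) and 1 lower (14.8%). Nr1h3 rose by 2.74 ± 0.16 at 8 h (adjusted p = 7.2e-08), to 75.6 CPM in WT and 91.7 CPM in the knock-in, and Abcg1 by 1.46 ± 0.12 (adjusted p = 1.3e-06), to 273 and 528 CPM. Elovl6 fell (−0.89 ± 0.15, adjusted p = 0.00043), to 31.5 and 30.1 CPM. Its fall at 3 h, −0.65 ± 0.15, lost its call without either unstimulated library or the WT TNF 3 h library.

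Abca1 rose by 1.11 ± 0.33 after 8 h of TNF (log2, SE, adjusted p = 0.027). In WT it climbed to 339, 361 and 679.9 CPM at 1, 3 and 8 h, and in the knock-in it was at 705, 1139 and 886 CPM. The call was lost with library totals (0.86, adjusted p = 0.081), without a filter on low counts (adjusted p = 0.087), and without the unstimulated WT (0.86, adjusted p = 0.19) or WT TNF 8 h library (0.81, adjusted p = 0.18). Scd1 had a fitted change of 0.46 ± 0.23 after 8 h of TNF (adjusted p = 0.15), with WT at 1.77 times and the knock-in at 1.13 times its unstimulated level. Fasn (−0.39 ± 0.27), Acaca (0.10 ± 0.14), Srebf1 (0.07 ± 0.10) and Scd2 (0.0012 ± 0.10) did not pass at 8 h either.

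**Figure D3:**
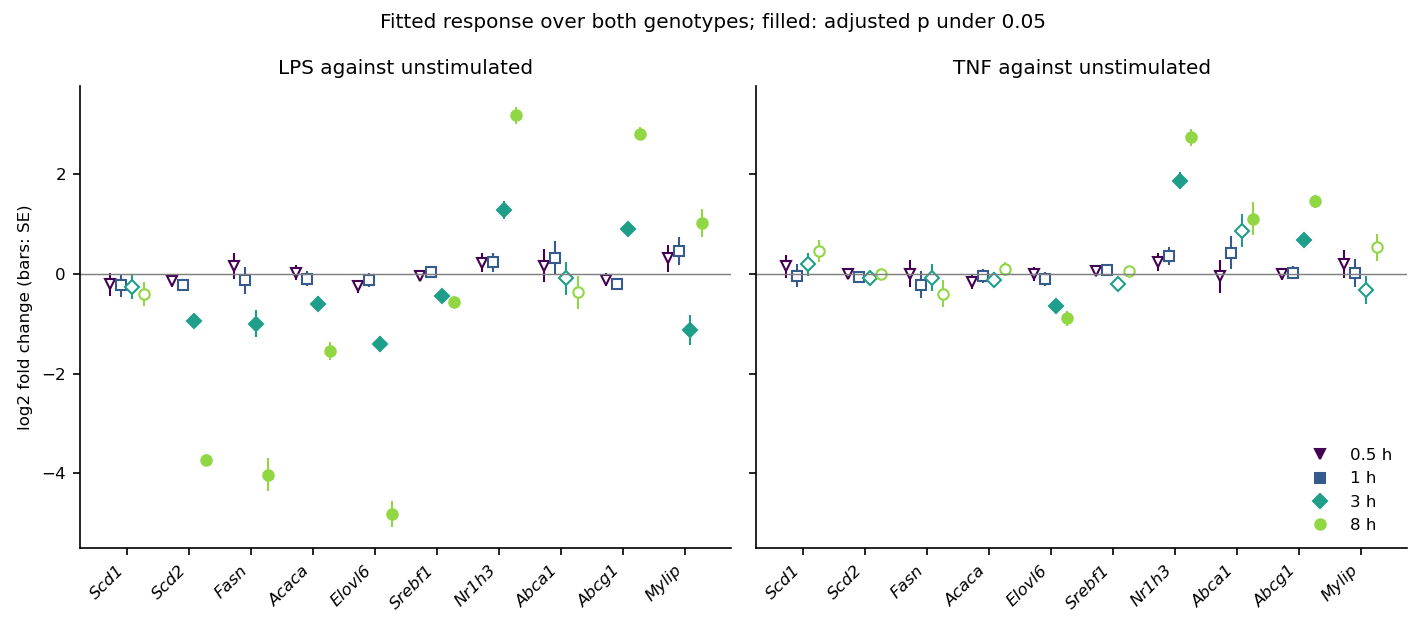
Fitted log2 fold change against the unstimulated libraries for each gene after LPS (left) and TNF (right) at 4 times, with SE bars; filled symbols have an adjusted p under 0.05. After 8 h of LPS Elovl6, Fasn and Scd2 lie between −4.83 and −3.73 and Nr1h3 and Abcg1 at 3.19 and 2.82, while after TNF Nr1h3 reaches 2.74 and the other synthesis genes than Elovl6 have open symbols at every time.

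LPS and TNF were compared at matched times, as the mean over 4 times and at each. Over the 4 times 8 members passed, beside 48.9% of all genes, 1 as higher with LPS (23.7%) and 7 as lower (25.2%). Scd2 (−1.23 ± 0.05), Elovl6 (−1.24 ± 0.10), Fasn (−1.08 ± 0.14), Abca1 (−0.58 ± 0.17), Acaca (−0.50 ± 0.08), Scd1 (−0.47 ± 0.12) and Srebf1 (−0.25 ± 0.05) were lower with LPS on the log2 scale. Abcg1 was higher with LPS by 0.31 ± 0.06 (adjusted p = 0.00090), a difference that was 0.01 with library totals. Nr1h3, at −0.07 ± 0.08, was not called, but was at −0.38 and called with library totals (adjusted p = 0.0013), which shift the median of all genes by −0.31 here.

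Most of that difference arose late. At 0.5 and 1 h no member was called, none had an unadjusted p under 0.05, and 0.0442% and 1.20% of all genes were called. At 3 h 5 members passed (31.3% of all genes), Scd2, Fasn, Acaca, Elovl6 and Nr1h3, each lower with LPS (14.4% of all genes were). At 8 h 9 passed (58.4% of all genes), 2 as higher with LPS (30%) and 7 as lower (28.4%). The gap was then −3.93 ± 0.28 for Elovl6, −3.73 ± 0.12 for Scd2, −3.64 ± 0.33 for Fasn, −1.48 ± 0.34 for Abca1 and −0.86 ± 0.25 for Scd1 (adjusted p = 0.011). Abcg1 was higher with LPS at 8 h by 1.36 ± 0.12, and by 0.65 with library totals. Nr1h3, lower with LPS at 3 h (−0.59 ± 0.16, adjusted p = 0.012), was at 0.44 ± 0.14 at 8 h (adjusted p = 0.016), a direction that turned with library totals (−0.26, adjusted p = 0.12). That 8 h call was also lost without the WT LPS 8 h (0.34, adjusted p = 0.11) or WT TNF 8 h library (0.18, adjusted p = 0.29), and that of Scd1 without the WT TNF 8 h (−0.66, adjusted p = 0.070) or knock-in LPS 8 h library (−0.60, adjusted p = 0.21). At 3 h the calls of Fasn, Acaca and Nr1h3 did not hold without the knock-in LPS 3 h or the knock-in TNF 3 h library, nor those of Fasn and Acaca without the WT LPS 3 h library.

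Whether the genotype difference of the members depended on stimulus or time was tested by 3 interaction contrasts, and edgeR called no member in any of them. The error of these tests is itself taken from how the genotype pairs differ within the compared sets of conditions. A missing call therefore does not show that a difference was constant. Late minus early also took LPS and TNF together. For LPS minus TNF 0 of 11308 genes were called, 578 had an unadjusted p under 0.05, DESeq2 called 4 genes and limma-voom 0, none of them a member. Of the members, Scd1 (0.54 ± 0.19, unadjusted p = 0.016, adjusted p = 0.90) and Mylip (−0.65 ± 0.21, unadjusted p = 0.011, adjusted p = 0.90) had an unadjusted p under 0.05. The Scd1 difference was 3.21 ± 0.14 over the LPS pairs and 2.67 ± 0.13 over the TNF pairs, and that of Mylip −0.10 ± 0.15 and 0.55 ± 0.15. For stimulated minus unstimulated, which rests on 1 unstimulated pair, 0 genes were called, 200 had an unadjusted p under 0.05 and none of these was a member, while DESeq2 called 1 gene and limma-voom 0. For late (3 and 8 h) minus early (0.5 and 1 h) 45 genes were called, 0.398%. No member had an unadjusted p under 0.05, DESeq2 called 122 genes and limma-voom 56, and none was a member. Abca1, at −0.39 ± 0.32 in that contrast, was called when 1 of the TNF 3 h libraries was left out, WT (−0.74, adjusted p = 0.034) or knock-in (−0.73, adjusted p = 0.037).

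The synthesis genes that fell with LPS varied together over the 18 libraries. Pearson's r of log2 CPM was 0.98 for Fasn and Elovl6, 0.96 for Fasn and Acaca and 0.91 for Fasn and Scd2, but 0.52 for Scd1 and Scd2. These values share the same libraries, conditions and scaling and are a description. Among 8316 genes with a mean log2 CPM of at least 3, those most like Scd1 over the 18 libraries were Lpl (0.98), Ighm (0.97), Aldoc (0.96), Pmvk (0.94), P4hb (0.94) and Tm7sf2 (0.94). Each of these, like Scd1, had every knock-in library above every WT library. The ranking thus largely follows the genotype difference by which Scd1 was chosen. Lpl encodes lipoprotein lipase, Ighm the constant part of the IgM heavy chain, Aldoc a glycolytic aldolase, and Pmvk and Tm7sf2 enzymes of sterol synthesis. Genes most like Abca1 were Sc5d (0.89), Msmo1 (0.87), Fam234a (0.85), Slc41a2 (0.83), P4hb (0.83) and Cd24a (0.82), of which Sc5d and Msmo1 encode enzymes of sterol synthesis.

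Of 71 further pathway genes in 4 lists, 64 were tested, and 34 differed by genotype, 28 higher and 6 lower in the knock-in, beside 10.3% of all genes called higher and 9.46% lower. The lists were chosen with earlier results of these data known, so these counts and p-values are a description and not independent evidence of a direction. In fatty acid synthesis and desaturation 11 of 25 tested were higher, 4 lower and 10 not called, with a list median of 0.19. Fads2, the delta-6 desaturase of polyunsaturated fatty acids, was higher by 1.12 ± 0.04 (log2, SE, adjusted p = 6.2e-09), from 23.9 to 56.9 CPM in WT and from 62.0 to 119 CPM in the knock-in, so the groups did not overlap. Acsl3, an acyl-CoA synthetase, was higher by 0.61 ± 0.06, Acss2, which makes acetyl-CoA from acetate, by 0.56 ± 0.13 and Fads1, the delta-5 desaturase, by 0.44 ± 0.04. Dgat2, the triglyceride-forming transferase, was lower (−1.24 ± 0.24, adjusted p = 0.0026), as were the malic enzyme Me1 (−0.54 ± 0.16), Acsl1 (−0.42 ± 0.12) and the elongation dehydratase Hacd2 (−0.37 ± 0.07). The calls of Acsl1 and Me1 were each lost in 10 of 18 fits that left out a library. Dgat2, whose mean log2 CPM was 0.70, was below the level set for naming and was added after its value was seen.

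In the LXR list 8 of 20 tested were higher and 2 lower (median 0.09). The phospholipid transfer protein Pltp was higher by 1.45 ± 0.09 (adjusted p = 2.7e-07) and Lpl by 1.16 ± 0.04 (adjusted p = 4.8e-09), from 1060.2 to 1663 CPM in WT and from 2526 to 3467 CPM in the knock-in without overlap. Lpcat3, which places polyunsaturated chains in phospholipids, was higher by 0.60 ± 0.05, and Arl4c by 0.83 ± 0.25 (adjusted p = 0.047), a call lost in 14 of 18 fits that left out a library. Smpdl3a, a phosphodiesterase, was lower (−0.62 ± 0.05), and so was Rxra, the RXR partner of LXR (−0.43 ± 0.10). Of the SREBP processing genes 3 of 6 were higher, Insig1 (0.43 ± 0.12), Insig2 (0.33 ± 0.07) and Srebf2 (0.21 ± 0.04), and none lower. Of the oxidation and lipolysis genes 6 of 13 were higher and 0 lower, with the lipid droplet coat Plin2 at 0.70 ± 0.09, the receptor Pparg at 0.60 ± 0.14, Hadhb at 0.28 ± 0.09 and Acadl at 0.21 ± 0.07. With library totals this last list gave 2 higher and 1 lower, and the 4 lists together 21 higher and 9 lower. The calls of Hadhb and Acadl did not hold then, nor in 12 and 13 of 18 fits that left out a library. The marker differences in macrophage, fibroblast and neutrophil genes given above moved with these genotype differences, and their part was not tested.

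**Figure D4:**
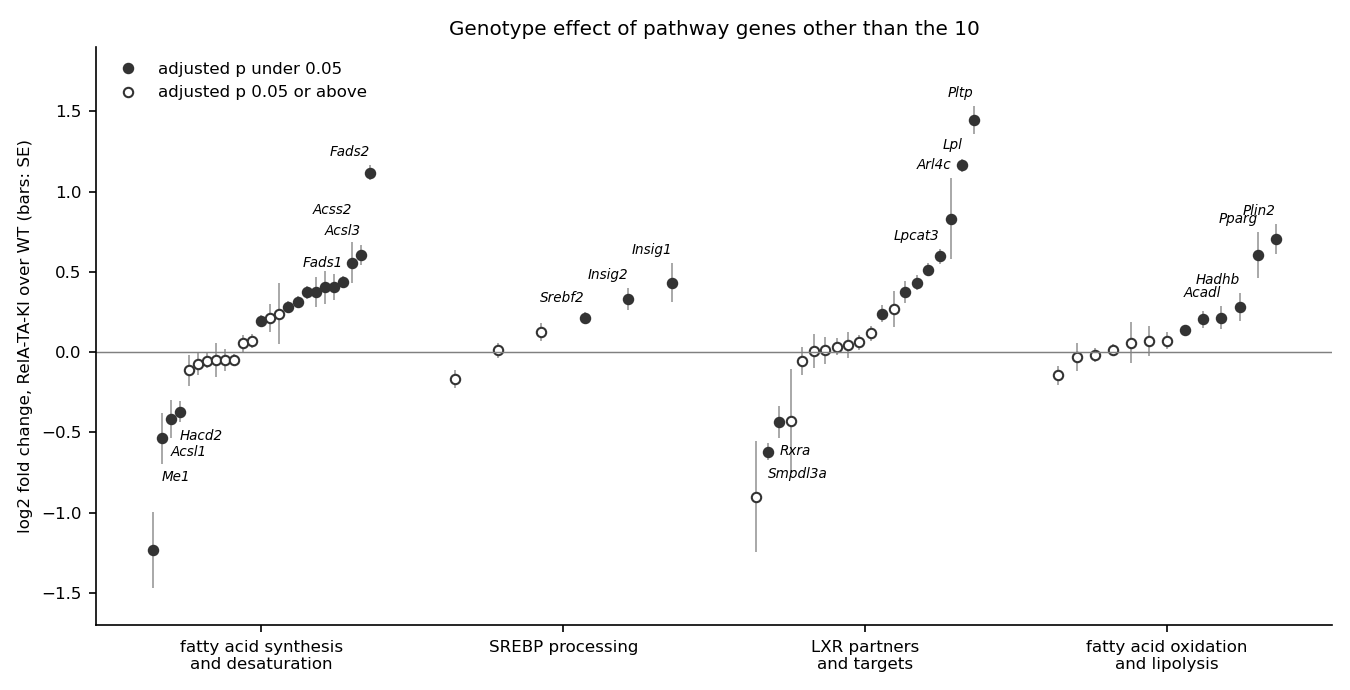
Fitted log2 genotype difference (RelA-TA-KI over WT, bars show the SE) of the 64 tested pathway genes outside the 10, ordered within each of 4 lists, with filled points at an adjusted p under 0.05. Most filled points lie above 0, with Pltp at 1.45, Lpl at 1.16 and Fads2 at 1.12.

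The same lists moved in both directions with LPS. Of all 11308 genes, 33.8% were higher and 33.9% lower after 8 h, or 1737 and 7657 genes with library totals. The list counts below stand beside these shares and were not tested against them. After 8 h 7 of 25 synthesis genes were higher and 12 lower, but 3 and 20 with library totals. Lpin1, a phosphatidate phosphatase, fell (−5.58 ± 0.33 on the log2 scale), as did Acsl3 (−3.64 ± 0.17), the acyltransferase Gpam (−2.47 ± 0.28) and Elovl7 (−2.27 ± 0.56). Acsl1 rose by 2.93 ± 0.26 and Lpin2 by 1.32 ± 0.11, whereas the gains of Acsl5 (0.82) and Slc25a1 (0.45) turned to −0.12 and −0.50 with library totals. The LXR list had 9 of 20 higher and 5 lower, or 4 and 12 with library totals. In it the efferocytosis receptor Mertk rose by 2.08 ± 0.18, Pltp by 1.93 ± 0.18 and Npc2 by 1.68 ± 0.12, and Rxra (−2.52 ± 0.24), Arl4c (−1.86 ± 0.57) and Rxrb (−0.50 ± 0.19) fell. The gain of Cyp27a1, 1.10 ± 0.24, was 0.13 with library totals. Ch25h had the largest change of this list, 6.93 ± 0.71. With a mean log2 CPM of 0.90 it was below the level set for naming, and was added like Dgat2. It ranged from 0.247 to 42.6 CPM in WT and from 0 to 32.2 CPM in the knock-in. Of 6 SREBP processing genes 5 were lower and 1 higher (5 and 0 with library totals), with Insig1 at −1.81 ± 0.27, the proteases Mbtps1 and Mbtps2 at −0.58 ± 0.10 and −0.53 ± 0.12, the escort Scap at −0.36 ± 0.13 and Insig2 at 0.94 with TMM and −0.02 with library totals. Of 13 oxidation and lipolysis genes 5 were higher and 4 lower (1 and 8 with library totals), among them the lipase gene Lipe (2.42 ± 0.16) and Pparg (−2.0 ± 0.37). Acadm (−1.06 ± 0.12) and Hadhb (−0.61 ± 0.21) were lower too. Plin2 (1.12 ± 0.20), Acadl (1.07 ± 0.15) and the lipase Pnpla2 (0.85 ± 0.10) were higher with TMM only, and stood at 0.17, 0.11 and −0.10 with library totals.

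After 8 h of TNF 7 of 25 synthesis genes were higher and 5 lower (3 and 9 with library totals). Of all 11308 genes, 17.1% were higher and 14.8% lower, or 1158 and 3510 genes with library totals. The list counts of this paragraph were not tested against these shares. Acsl1 rose by 1.5 ± 0.25, Me1 by 1.36 ± 0.30 and Acss2 by 1.01 ± 0.25, and Lpin1 fell (−1.17 ± 0.17). Hacd3 (−0.55 ± 0.10), Fads1 (−0.40 ± 0.08) and Acsl3 (−0.38 ± 0.13) were lower, and Acsl4 was higher (0.58 ± 0.18), a call lost with library totals. Of the LXR list 6 of 20 were higher and 0 lower (4 and 5 with library totals), including the scavenger protein gene Cd5l (0.82 ± 0.14), Npc2 (0.62 ± 0.12) and Lpl (0.46 ± 0.09, not called with library totals). No SREBP processing gene passed (1 lower with library totals), and 3 of 13 oxidation and lipolysis genes were higher and 1 lower (1 and 3 with library totals), with Lipe at 0.94 ± 0.17. In that list Pnpla2 stood at 0.44 ± 0.10 and Cpt1a, the carnitine transferase, at 0.35 ± 0.12, both not called with library totals, and Pparg at −0.91 ± 0.30, a call lost in 12 of 18 fits that left out a library.

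The genes around Scd1 and Scd2 were also looked at in the genotype comparison. Within 1 Mb of the start of Scd1 18 other genes were tested, and 1, Got1, was called (0.29 ± 0.04, adjusted p = 0.00031). The nearest tested neighbours were Bloc1s2 (−0.28 ± 0.18, adjusted p = 0.30) on the side of Scd2 and Ndufb8 (0.01 ± 0.04, adjusted p = 0.87) on the side of Scd1. On chromosome 19, which also carries Rela 38.7 Mb from Scd2, 85 of 409 tested genes were called, 20.8%, beside 19.7% of all genes. These windows were looked at after the genotype values were known. Scd1 was chosen by this contrast, so a gap between it and its neighbours was set by that choice. A cause of the pattern was not tested.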

How the data were processed

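RNA was enriched for poly(A) and made into libraries with a stranded kit and sequenced as single 50-base reads, per the labels' protocols. The submitters' processing notes name cutadapt 1.12, STAR, featureCounts 1.5.0, DESeq2 and build mm10, while no source used here gives the annotation release or the strand setting. The authors deposited whole-number read counts per gene for all 18 libraries in 1 table with gene start, end and length. Symbols came from the reference gene table by Ensembl identifier, and 563 identifiers had none. No column lacked a sample.

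From these counts, genes kept by filterByExpr (minimum count 10, minimum total 15) were scaled by TMM and fitted with edgeR 4.0.16 (robust quasi-likelihood, R 4.3.3) on condition plus genotype, with 8 residual degrees of freedom, or 6 where the genotype difference was split by stimulus or time. The common biological coefficient of variation was 0.111. The threshold was a Benjamini-Hochberg adjusted p of 0.05 over all genes tested, two-sided. Since nothing says how many mice or cultures stand behind a library, p-values measure the spread between these libraries. Counting intervals are exact 95% binomial intervals, cover counting error only, and treat reads as independent molecules. Library totals of 4663650 to 6721917 reads limit genes of a few reads.

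The 10 members and the lists were chosen with earlier results of these data known, so the genotype difference of the members is given with no p. Text names all members, and from each list up to 4 called genes per direction and comparison with the largest change, at a mean log2 CPM no lower than 1, and the 6 genes most like Scd1 and Abca1. Dgat2 and Ch25h lie below that level and were added after their values were seen. Alternatives were DESeq2's size factors, library totals, leaving out each library, limma-voom 3.58.1, DESeq2 1.42.0, no filter, and keeping genes that reach 1 CPM in 9 libraries. The fits were tested on counts simulated from the fitted model, which cannot check the lack of replicates. Shared windows and overlaps were computed on GENCODE transcripts, and promoters came from RefSeq.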

Additional observations from a re-analysis of the deposited data

Results flagged for a closer look

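In 2 genes the genotype ratio after 8 h of LPS lay far from the other 8 conditions by Dixon's test, which flags about 1 in 20 sets by chance. The log2 ratio of knock-in to wild-type for Elovl6 was −1.3, against −0.12 to 0.39 in the others (gap over range 0.699). It rests on 9 and 4 reads, and the ratio of 0.406 has a counting interval of 0.0914 to 1.46. For Abcg1 the log2 ratio was 1.56 (gap over range 0.580), a ratio of 2.95 with a counting interval of 2.80 to 3.12 from 1735 and 5606 reads.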

How the results depend on the processing

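Of the 10 comparisons, DESeq2's size factors, library totals, no filter, the 1 CPM filter, DESeq2 and limma-voom kept every count of called members, and of pathway genes called by genotype, within 1.5 times the reported one when both directions were summed. By direction, library totals gave 0 members higher and 8 lower for LPS against TNF (1 and 7 reported), 1 and 16 over its single times (2 and 12), and 2 and 2 for TNF (2 and 1), and moved the list counts of the report further. Leaving out each library gave 8 to 8 members for the LPS response, 3 to 4 for TNF, 13 to 16 and 5 to 7 over the single times, 8 to 8 and 11 to 18 for LPS against TNF, and 28 to 33 pathway genes by genotype against 34 reported. It gave 0 to 0 members for the LPS minus TNF and stimulated minus unstimulated interactions, the latter over 16 fits because it needs both unstimulated libraries, and 0 to 1 for late minus early. Library totals turned 4 pathway genes after 8 h of LPS, Pnpla2 to −0.10, Slc25a1 to −0.50, Acsl5 to −0.12 and Insig2 to −0.021, and the cause was not tested beyond the shift of the median of all genes (−0.95). Library totals also turned Nr1h3 for LPS against TNF at 8 h to −0.26. The LPS pairs alone turned Mylip's genotype difference to −0.10. Of 3510 single values over 145 results, 168 lost and 24 gained a call. With library totals, LPS called 1737 genes higher and 7657 lower after 8 h, against 3827 and 3834 with TMM, TNF 1158 and 3510 against 1934 and 1677, and genotype 705 and 1823 against 1162 and 1070. The labels give no replicate number to pair by. The condition term already pairs the genotypes, so the reported fit is the paired one.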
